A study of Prunus persica with 12 samples.

Results

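Of the 27864 gene identifiers measured by RNA-seq in peach (Prunus persica) fruit flesh, 26 stood at an RPKM of at least 10 in both libraries of 'Hu Jing Mi Lu' stage 1 (HJ1) and under 1 in each of the 10 libraries of the other groups. RPKM is the number of reads of a gene per kilobase of its length and per 1000000 reads of the library. These 26 genes were chosen on all 12 libraries, so their levels and the gap between HJ1 and the rest describe the choice and were not tested. The share of identifiers meeting the rule was 0.0933%. The working name for the set, genes read only at stage 1, did not hold in full. At least 1 read was found outside HJ1 for 20 of the 26, and for 6 none was found.

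The samples were mesocarp, the edible flesh, of 4 cultivars in 6 groups with 2 libraries each. Of these, 'Hu Jing Mi Lu' gave groups HJ1, HJ2 and HJ3, numbered by ripening stage, whereas the other 3 cultivars were each taken once, at stage 2: YL2 is 'Yu Lu', JX2 is 'Jin Xiu Huang Tao', and ZH2 is 'Zhong Hua Shou Tao'. Aroma is labelled slight in HJ1 and in ZH2 and strong elsewhere, and the flesh is labelled soft melting except in ZH2, where it is hard melting. Firmness, fruit age and stage 1 of the other cultivars were not analysed here. Whether the 2 libraries of a group stem from different fruit is not stated, so the spread between them may be technical.

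Peach is a climacteric fruit, in which a burst of ethylene accompanies ripening. During that change the flesh softens as enzymes take the cell wall apart, chlorophyll is lost, and sugars and aroma compounds such as lactones accumulate. Genes of the growing, unripe fruit are shut down while ripening genes are switched on. The files did not pair the identifiers with names or products, and 0 of the 27864 matched the 26412 genes of the reference table. No role is therefore given for any of the 26, no tissue marker could be read, and no sequence is shown. The 2 most abundant are given by identifier and the others by their rank in mean HJ1 RPKM, from 1 for the highest to 26 for the lowest.

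Depth was worked back from the values, which step by the worth of a single read. It ran from 1205507 reads in HJ1 replicate 2 to 3222252 reads in HJ2 replicate 2, and HJ1 replicate 1 had 1942106. A read in a gene of 1 kb was worth 0.83 RPKM in the shallowest library and 0.31 RPKM in the deepest. The 26 genes held 2819 reads in the 2 HJ1 libraries and 118 reads in the other 10, whose depths add up to 22578040. In bulk tissue, fewer cells of a type and less RNA per cell cannot be told apart.

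In HJ1 the 26 genes were of moderate abundance. Mean HJ1 RPKM ran from 11.5 to 124, with a median of 23.3. The median over all 7007 genes at 10 RPKM or more in both HJ1 libraries was 33.9, so that of the 26 lay below it. Genes under 10 RPKM are not in that comparison. A mean of 50 RPKM was reached by 4 of them and one of 20 by 15. The highest stood at place 1042 among all genes by mean HJ1 RPKM, and the lowest at place 7076. Together they took 0.0985% ± 0.0050 of the RPKM sum in HJ1 (SD, n = 2), at 0.0949% in replicate 1 and 0.102% in replicate 2. This share depends on which genes the rule takes: without YL2 replicate 2, 30 genes met it and took 0.238%.

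**Figure D1:**
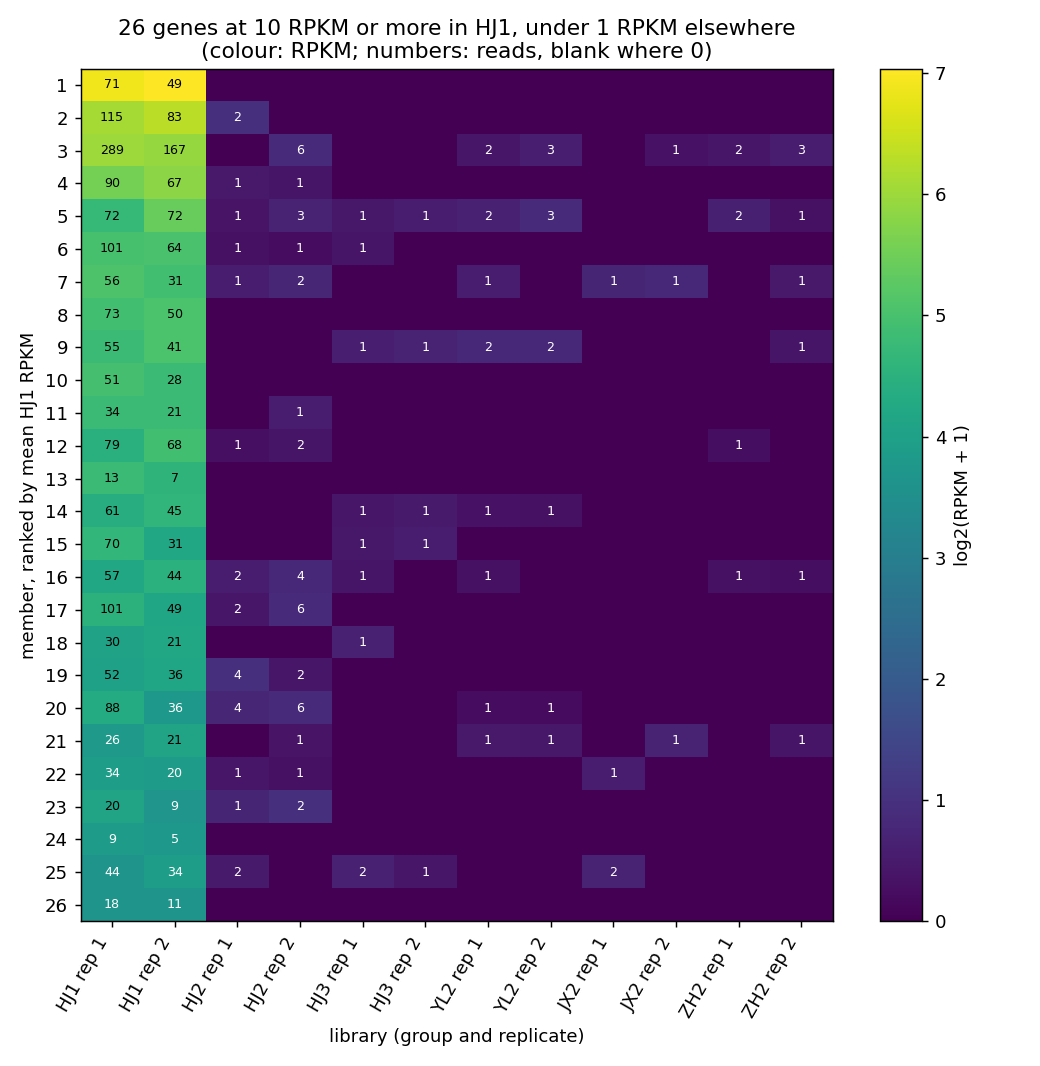
Level of each of the 26 genes (rows, ranked by mean HJ1 RPKM) in each of the 12 libraries (columns), as log2(RPKM + 1), with the number of reads printed in each cell and left blank at 0. The HJ1 columns hold 5 to 289 reads a gene, and the remaining columns hold at most 6.

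Where the remaining reads lay parts the 26 genes into 4 kinds. For 6 genes no read was found outside HJ1. A further 6 had reads in HJ2 and in no other group besides HJ1. Another 3 had reads in HJ3 but in no other cultivar, 1 of them also in HJ2. The last 11 had at least 1 read in another cultivar. These kinds rest on few reads, since 8 of the 20 genes read elsewhere had 1 to 3 reads there and 12 had more, up to 17.

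The gene ppa014189m was the most abundant of the 26. It stood at 117 RPKM in HJ1 replicate 1 and 130 RPKM in replicate 2, from 71 and 49 reads, a mean of 124 ± 9.27 RPKM (SD, n = 2). All 10 libraries of the other groups had 0 reads of it. Its worked-back length was 312 bp, so that 3 reads, the number that a count of 0 still allows, were worth 6.54 RPKM in the shallowest of those libraries. Its mean HJ1 RPKM was 18.9 times that floor. The rule used these same values, so this ratio describes the choice and was not tested.

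The other 5 genes without a read outside HJ1 were lower. The gene of rank 8 had 29.0 and 32.0 RPKM in the 2 HJ1 libraries, with a mean 19.4 times its floor. Rank 10 had 30.2 and 26.7 RPKM, with a mean 12.1 times its floor. Both are longer than ppa014189m, at 1296 and 869 bp, and the longer a gene, the lower the RPKM that 3 reads are worth. The remaining 3 rest on few reads. Rank 13 stood at 26.6 and 23.0 RPKM on 20 reads, rank 24 at 13.9 and 12.5 RPKM on 14 reads, and rank 26 at 11.6 and 11.4 RPKM on 29 reads. Their means were 3.06, 2.15 and 4.51 times their floors, with no allowance for the counting error in HJ1. Each ratio to a floor is set against 3 reads in the single shallowest library. It therefore cannot be compared with the ratios given for genes read elsewhere, which pool 10 libraries. For genes read in the HJ1 libraries alone, the values fix the reads and the length up to a common factor. The smallest whole numbers were taken, which give the lowest ratios to the floor.

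Gene length bears on who could join the set. For 21 of the 26, a single read stayed under 1 RPKM in every library outside HJ1. For the other 5 a single read reached 1 RPKM in at least 2 of those libraries, and for 3 of these in at least 5. These 3 are ppa014189m and ranks 13 and 24, with worked-back lengths of 312, 252 and 333 bp. At these lengths a single read reached 1 RPKM in 9, 10 and 9 of the 10 libraries outside HJ1. The rule thus required 0 reads there, so that all 3 are among the 6 without reads follows largely from it. It also sets part of the length gap between those 6 and the others. The median length was 567 bp for those 6, by the smallest lengths that fit, and 1465 bp for the 20 read elsewhere. Over all 26 it was 1141 bp, against 1297 bp for the 7007 genes at 10 RPKM or more in HJ1. All 26 identifiers began with ppa, as did 93.7% of the identifiers in the files.

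The 6 genes with reads in HJ1 and HJ2 alone included the second most abundant gene, ppa012078m. It stood at 67.2 and 78.2 RPKM in the HJ1 libraries, a mean of 72.7 ± 7.73 (SD, n = 2) from 198 reads. Outside HJ1 it had 2 reads, both in HJ2 replicate 1 (0.93 RPKM), and 0 in the other 9 libraries. The depth-corrected ratio of its reads in HJ1 to those in the other 10 libraries was 710 (exact 95% binomial interval 194 to 5905). No ratio can be formed without that HJ2 library, and the interval takes no account of the choice of the gene on these same libraries. Rank 4 was alike, with 46.0 and 55.2 RPKM in HJ1 and 1 read in each HJ2 library, or 0.41 and 0.31 RPKM.

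The other 4 genes of this kind were lower in HJ1. Rank 17 had 21.8 and 17.1 RPKM in HJ1, with 2 and 6 reads in HJ2, worth 0.34 and 0.78 RPKM. Rank 19 had 15.2 and 16.9 RPKM in HJ1, with 4 and 2 reads in HJ2, worth 0.93 and 0.35 RPKM. Rank 23 stood closest to the limit of all 26. It had 16.2 and 11.8 RPKM in HJ1 and 0.65 and 0.98 RPKM in HJ2. Rank 11, at 26.8 and 26.6 RPKM in HJ1, had a single read in HJ2 replicate 2 (0.47 RPKM).

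Of the 3 genes read in HJ3 but not in another cultivar, rank 6 had 30.6 and 31.2 RPKM in HJ1, 1 read in each HJ2 library and 1 read in HJ3 replicate 1. Rank 15, with 24.5 and 17.5 RPKM in HJ1, had 0 reads in HJ2 and 1 read in each HJ3 library, worth 0.37 and 0.46 RPKM. Rank 18, with 15.6 and 17.6 RPKM in HJ1, had a single read outside HJ1, in HJ3 replicate 1. Counts of 0 and 1 cannot be told apart here, so no order of the stages can be read from these genes.

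The 11 genes with a read in another cultivar held most of the remaining signal. Rank 3 stood at 63.8 and 59.4 RPKM in HJ1, from 456 reads, the most reads of the 26. Outside HJ1 it had 17 reads spread over 6 libraries, with 6 in HJ2 replicate 2, 0 in HJ2 replicate 1 and 0 in both HJ3 libraries. YL2 held 2 and 3 of them, JX2 0 and 1, and ZH2 2 and 3. Its depth-corrected ratio of HJ1 to the other 10 libraries was 192, with an exact 95% binomial interval of 119 to 333.

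Rank 5 was the gene read most widely. It had 25.4 and 41.0 RPKM in HJ1 and at least 1 read in 8 of the other 10 libraries, with JX2 as the group at 0. Its values there ran up to 0.81 RPKM, in YL2 replicate 2. Rank 9, at 26.5 and 31.9 RPKM in HJ1, had 0 reads in HJ2 and in JX2. It had 1 read in each HJ3 library, 2 reads in each YL2 library and 1 read in ZH2 replicate 2. Rank 14 was alike in having 0 reads in HJ2, with 19.9 and 23.7 RPKM in HJ1 and 1 read in each HJ3 and each YL2 library.

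Ranks 7, 16 and 21 were each read in at least 3 of the other groups as well. Rank 7 had 32.7 and 29.2 RPKM in HJ1, and its 7 reads elsewhere lay in every group but HJ3. Rank 16 had 17.4 and 21.6 RPKM in HJ1 and 10 reads elsewhere, 6 of them in HJ2. Rank 21 had 12.6 and 16.4 RPKM in HJ1 and 5 reads elsewhere, each in a different library.

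The last 4 of these genes were read in fewer groups. Rank 20, with 18.9 and 12.5 RPKM in HJ1, had 4 and 6 reads in HJ2 and 1 read in each YL2 library. Rank 12, with 21.1 and 29.2 RPKM in HJ1, had 3 reads in HJ2 and 1 in ZH2 replicate 1. Rank 22 (14.4 and 13.7 RPKM in HJ1) had 1 read in each HJ2 library and 1 in JX2 replicate 1. Rank 25 (11.6 and 14.4 RPKM in HJ1) had 2 reads in HJ2, 3 in HJ3 and 2 in JX2.

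Across all 20 genes read elsewhere, the depth-corrected ratio of HJ1 to the other 10 libraries ran from 67.4 to 710, with a median of 132. The intervals were wide. The lowest ratio, of rank 21, had an exact 95% binomial interval of 26.9 to 217. Intervals and floors cover counting error alone. The intervals take no account of how the genes were chosen, and the limits of the rule already make every ratio large.

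Summed over the 26 genes, HJ2 kept more signal than any other group besides HJ1. The summed RPKM was 757 and 801 in the HJ1 libraries and 6.38 and 7.60 in HJ2. HJ3 followed at 3.39 and 2.35, near YL2 at 3.18 and 2.83. The lowest sums were those of JX2, at 1.75 and 1.64, and of ZH2, at 1.33 and 1.93. Both HJ2 sums were higher than those of the other 8 libraries, but the rule used these values to choose the genes. How often HJ2 is so placed over all genes was not counted. Per 1000000 reads of the library, HJ1 held 896 reads of the 26 genes and HJ2 held 10.8 (exact 95% binomial interval 8.24 to 13.8). The value was 4.26 (2.33 to 7.15) in HJ3 and 4.39 (2.75 to 6.65) in YL2. JX2 held 2.17 (0.873 to 4.47) and ZH2 held 2.60 (1.42 to 4.35). Each interval pools the reads of the 26 genes and of both libraries of a group. The spread between genes and between libraries is left out, so the intervals do not compare the groups. ZH2, which shares the label of slight aroma with HJ1, was held under 1 RPKM by the rule like the other groups. A link with aroma was not tested. The limit of 1 RPKM caps each value here, so these sums are no test of a difference between groups.

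**Figure D2:**
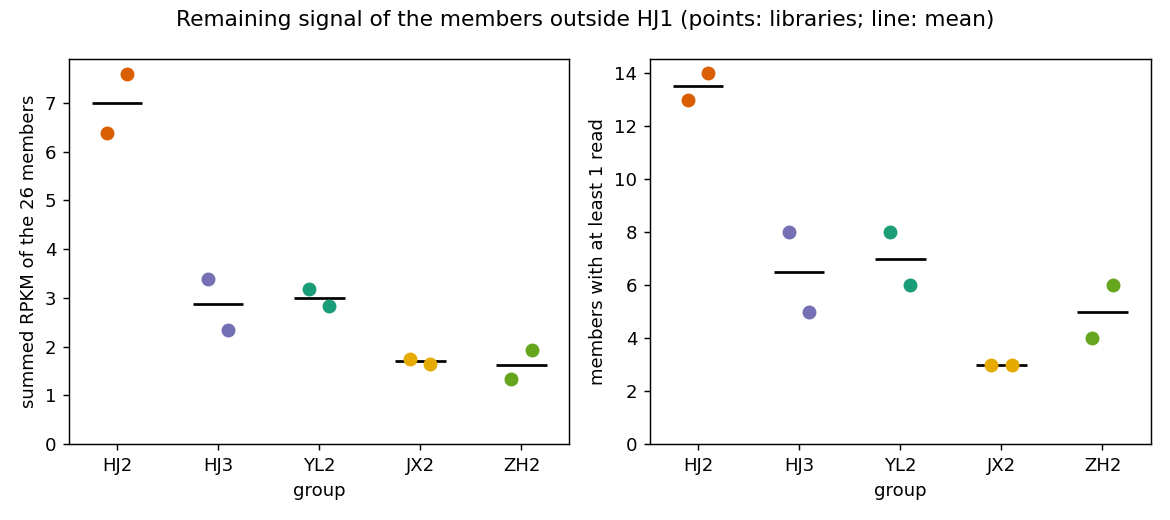
Signal of the 26 genes outside HJ1, as their summed RPKM (left panel) and as the number of them with at least 1 read (right panel), for each library (points) with the mean of the group (line). The HJ2 libraries lie highest in both, at 6.38 and 7.60 RPKM and at 13 and 14 genes.

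The number of the 26 genes with a read followed a similar order. HJ2 had at least 1 read of 16 genes, HJ3 and YL2 of 8 each, ZH2 of 7 and JX2 of 5. This number grows with depth. The HJ2 libraries had 2440928 and 3222252 reads, ZH2 had 2505617 and 2889279, and YL2 had 2460741 and 2550536. JX2, with 1699524 and 1524800, and HJ3, with 1814325 and 1470038, were shallower. By mean RPKM, HJ2 was the highest of the other groups for 11 of the 20 genes read elsewhere (55%). The same held for 52.5% of the 4001 genes whose lower HJ1 library exceeded every other library and that had a read elsewhere. Genes with HJ1 above every other library, read elsewhere or not, made up 14.9% of the 27864 identifiers. All 26 belong there by the rule.

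The 2 HJ1 libraries were then compared with each other, because the rule sets a minimum in both but does not use their ratio. That minimum still narrows the ratio for genes close to it, and genes with few reads are less readily called. Replicate 2 was higher for 14 of the 26 genes and replicate 1 for 12. The ratio of replicate 2 to replicate 1 ran from 0.66 to 1.61 with a median of 1.06, and it lay within 1.5 times for 24 genes (92.3%). Among the 7007 genes at 10 RPKM or more in both libraries, 91.8% lay within 1.5 times and the median ratio was 0.98. A two-sided exact binomial test on reads, with Benjamini-Hochberg adjustment over the 7007 genes, called 356 of them (5.08%) at an adjusted p of 0.05, and 0 of the 26. Among all genes tested, 2.13% were called higher and 2.95% lower in replicate 2. At an unadjusted p under 0.05 the exact test took 2 of the 26 (7.69%) and 14.8% of all genes tested. This test compares these libraries, not conditions, and its calls show that the HJ1 libraries differ by more than sampling noise.

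Those 2 were ranks 5 and 20. Rank 5 had 72 reads in either library, or 25.4 and 41.0 RPKM, a ratio of 1.61 with an exact binomial p of 0.00562 and an adjusted p of 0.0842. Rank 20 was lower in replicate 2, at 12.5 against 18.9 RPKM, with an exact binomial p of 0.0395 and an adjusted p of 0.296.

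**Figure D3:**
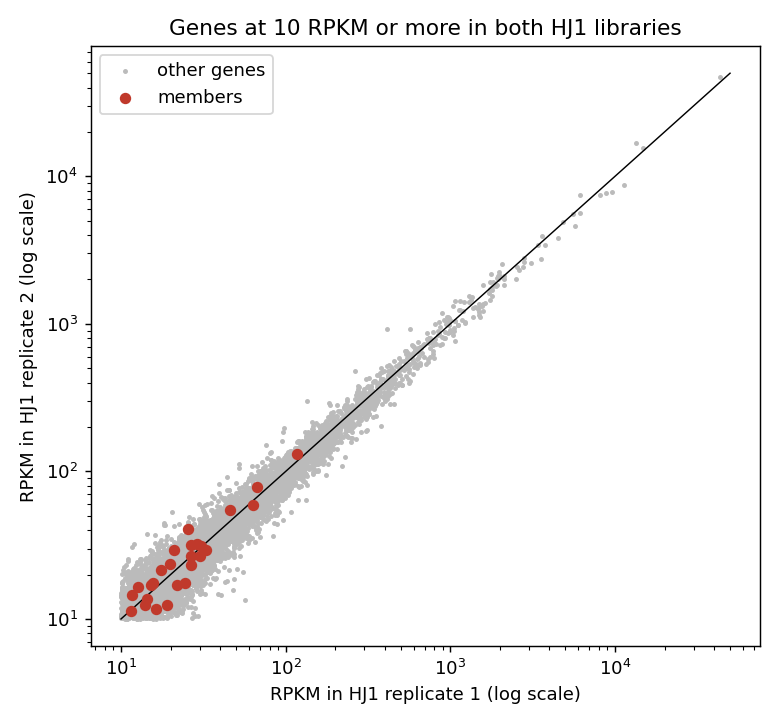
RPKM in HJ1 replicate 1 (horizontal) against HJ1 replicate 2 (vertical), both on log scales, for the 7007 genes at 10 RPKM or more in both; the line marks equal values. The 26 genes (red) lie along the line within the cloud of the other genes, from 11.4 to 130 RPKM.

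The rule was also applied to 1 library of each group, and the genes so chosen were read in the library left aside. Chosen on the libraries of replicate 1, 55 genes met it. In the libraries of replicate 2, the HJ1 value of 53 of them lay above those of all 5 other groups, which held for 24.2% of all 27864 identifiers. That share is no like-for-like background. It has no minimum in HJ1, and only 17316 of the identifiers were above 0 in 2 or more libraries. Of the 55, 44 reached 10 RPKM there and 35 stayed under 1 RPKM in the other groups. Both held for 26 (47.3%), which are the 26 described here, since they are the genes that meet the rule in both sets of libraries. The HJ1 values in the libraries not used ran from 0 to 1183 RPKM, with a median of 17.1 RPKM. The highest other library had a median of 0.73 RPKM and reached 10.1 RPKM. Chosen on replicate 2, 53 genes met the rule. In the replicate 1 libraries all 53 had their highest value in HJ1 (25.6% of all identifiers), with a median of 15.7 RPKM, and 26 (49.1%) met the whole rule. The 26 were chosen on both sets of libraries, so these counts describe how the limits part the genes and support nothing about the 26. With 1 library per group in each set there is no test.

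The limits cut through a continuous range. Of the 7007 genes at 10 RPKM or more in both HJ1 libraries, 26 had a highest other value under 1 RPKM and 33 had one from 1 to under 2. For 109 it was from 2 to under 5, for 296 from 5 to under 10, and for 6543 it was 10 RPKM or more. Just inside, rank 23 reached 0.98 RPKM outside HJ1. The nearest gene outside stood at 35.4 and 21.9 RPKM in HJ1 and reached 1.04 RPKM elsewhere. On the side of the HJ1 minimum, rank 26 had 11.4 RPKM in its lower HJ1 library. The nearest gene left out had 14.8 and 9.85 RPKM in HJ1 and at most 0.57 RPKM elsewhere.

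**Figure D4:**
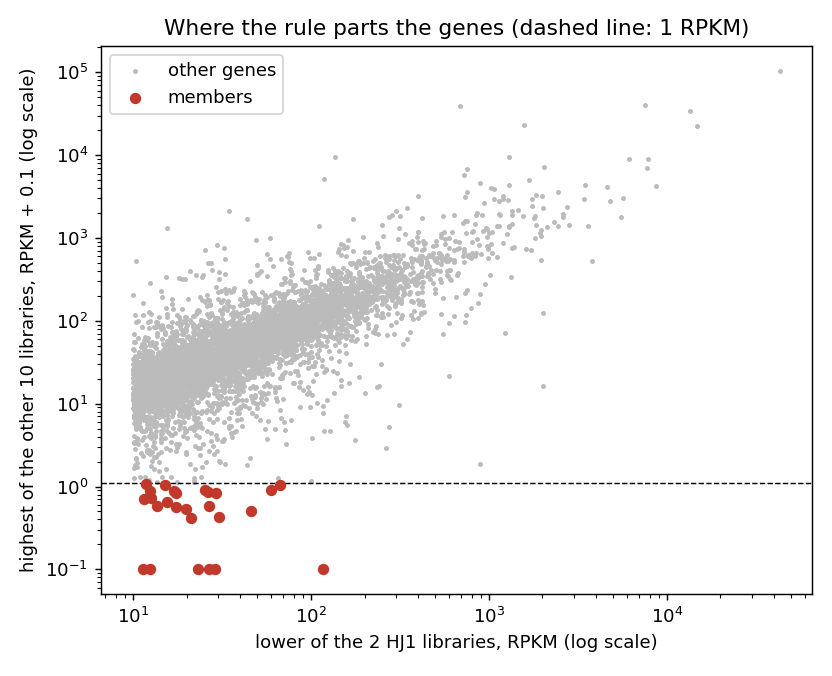
Lower of the 2 HJ1 libraries (horizontal, RPKM, log scale) against the highest of the other 10 libraries (vertical, RPKM + 0.1, log scale) for the 7007 genes at 10 RPKM or more in both HJ1 libraries. The 26 genes (red) lie under the dashed line at 1 RPKM, 6 of them at 0 reads, and the other genes continue above it without a gap.

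The same limits were set for each of the other groups. No gene (0%) met them in HJ2, and 1 gene (0.00359%) met them in each of HJ3, YL2, JX2 and ZH2. The opposite pattern, under 1 RPKM in both HJ1 libraries and at least 10 RPKM in the other 10, was found for 8 genes (0.0287%). These counts do not stand on equal terms, since HJ1 is the 1 group at stage 1, whereas each group at stage 2 was set against 3 others at that stage. Stage 1 flesh of the other cultivars was not analysed here, so for those cultivars the part of stage and of cultivar cannot be told apart. Without a statement of how the authors treated strand and reads that match several genes, a gene that overlaps a neighbour or has a near-identical copy is uncertain.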

How the data were processed

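The deposited values are RPKM per gene, 1 table per library, per the file headers. The submitters' processing notes name 4 tools without saying what each did (Bowtie 0.12.8, TopHat 1.4.0, HTSeq 0.5.3, DESeq 1.10.1). Neither the genome build nor the annotation, filters or strand handling is given in the sources used here. RPKM follows the share of a library, so abundant genes lower the values of all others.

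Depths, gene lengths and whole reads were worked back from ratios of low values with Python 3.11.15, numpy 2.4.6, pandas 2.3.3 and scipy 1.17.1. Within 0.001 reads, 100% of the values came out whole in the 17316 genes that were above 0 in 2 or more libraries. This and the exact binomial test were tested on simulated data. A count of 0 was taken to allow 3 reads.

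The 26 genes and the comparisons were chosen with earlier results of these data known. The rule for named genes, the 2 highest in HJ1, gave ppa014189m and ppa012078m. Alternatives were other limits (5 or 20 RPKM in HJ1, 0.5 or 2 RPKM elsewhere), rescaling by median ratio or TMM, a limit on reads, other depths and pseudocounts, and leaving out each library.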

Additional observations from a re-analysis of the deposited data

How the results depend on the processing

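The number of genes that met the rule depended on its limits. It was 26 as described, 70 with an HJ1 minimum of 5 RPKM, 13 with 20 RPKM, 13 with a ceiling of 0.5 RPKM outside HJ1, 59 with a ceiling of 2 RPKM, and 50 with a limit of 3 reads in each other library, of which 21 were among the 26. Rescaling by median ratio or TMM gave 25 genes each, 23 of them shared. A prior filter for at least 1 RPKM in at least 2 libraries left all 26. It could remove none of them, since the rule sets at least 10 RPKM in both HJ1 libraries. The share of the HJ1 RPKM sum was 0.142%, 0.0719%, 0.0534% and 0.333% with the 5 RPKM minimum, the 20 RPKM minimum, the 0.5 RPKM ceiling and the 2 RPKM ceiling. The number without a read outside HJ1 was 17 with the 5 RPKM minimum.

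Leaving out each library in turn gave 26 to 36 genes, all of the 26 among them, with 6 to 9 genes without a read outside HJ1. A library left out can only loosen the rule, so all 26 had to stay and neither number could fall. The share of the HJ1 RPKM sum ran from 0.0985% to 0.238%, the highest without YL2 replicate 2. The median difference between HJ1 and the highest other group was 4.07 on the log2(RPKM + 1) scale, and 3.98 to 4.15 with a library left out. A pseudocount of 0.1 moved it to 5.47 and of 0.5 to 4.67. Between the HJ1 libraries, 0 of the 26 were called under each of the 3 alternatives tried. No paired analysis was possible because the contrast of HJ1 with the other groups was used to choose the genes and was not tested. Depth limits what can be said of genes with few reads, such as rank 24 with 14 reads in HJ1.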
